A study of Mus musculus with 6 samples.

Results

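The genes described here are 35 microglial identity and myeloid signalling genes, chosen by name from the 56748 genes of a count table made from infarcted mouse cortex. Each member stands in the table once and each passed the filter on low counts, so 35 of 35 were tested among 17584 genes. Male wild-type C57 mice received a photothrombotic stroke, in which an intravenous agent (100 mg/kg, not named in the labels) and a 532 nm laser (250 mW, 1.5 mm, 5 minutes) close vessels of the left cortex. At 2 hours, 100 µL of either saline (3 libraries) or PLEA nanoparticles (3 libraries) was given by tail vein, and cortex of the day 3 group was taken after perfusion. The labels do not spell out PLEA. All 6 libraries carry the same stroke, and no unlesioned cortex was analysed here, so values compare the treatments. Whether the replicates of a group are separate animals is not stated in the labels, and the p-values rest on the spread between these libraries, which may be technical.

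Microglia are the resident macrophages of the brain. They depend on the receptor CSF1R and its ligands CSF1 and IL-34, and they survey tissue through purinergic receptors such as P2RY12 and the fractalkine receptor CX3CR1. Receptors such as TREM2 signal through TYROBP, an adaptor whose cytoplasmic tyrosine motif (ITAM) is phosphorylated by Src-family kinases. The phosphatase encoded by Inpp5d opposes such signals. PU.1 (encoded by Spi1), IRF8 and RUNX1 are transcription factors of the myeloid lineage, and SALL1 supports the microglial state. P2RY12, TMEM119 and SALL1 mark microglia among brain macrophages, whereas PTPRC, CD53 and ITGAM are shared with leukocytes that can enter injured tissue.

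The myeloid module had lower values in PLEA than in saline for 34 of 35 members, against 51.0% of all tested genes, but no member passed the test. The microglial markers P2ry12, Tmem119 and Sall1 were detected in all 6 libraries. The median log2 fold change (PLEA against saline) was -0.92 over the members and -0.01 over all tested genes. Purinergic receptor P2ry12, the lectin Siglech, the fructose transporter Slc2a5 and the receptor Cd33 had unadjusted p-values under 0.05 in edgeR's quasi-likelihood test. That is 4 of 35 members against 3.58% of all tested genes on the lower side. No member was on the higher side at that level. After Benjamini-Hochberg adjustment over the 17584 genes, 0 of 35 members and 0.0% of all tested genes were called lower, and 0 of either were called higher; the members' adjusted p-values ran from 0.818 to 0.973. DESeq2 and limma voom also called 0 of 35 members, and DESeq2 called 0.21% of its genes lower. Only Sall1 had all 3 PLEA libraries below all 3 saline libraries (1 of 35, against 5.54% of tested genes), and no member had them all above (5.16% of tested genes).

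The module moved as a block between libraries of the same group. Its summed level, in CPM (counts scaled to the library's total and TMM factor), was 1702, 499 and 649.6 over the saline libraries, in the order of their replicate numbers, and 781, 304 and 507 over the PLEA libraries. Saline replicate 1 was the highest library for 35 of 35 members, against 21.3% of tested genes, and PLEA replicate 2 was the lowest for 30 of 35, against 19.1%. Both held for 30 members and for 8.16% of tested genes. Between these ends the groups interleaved, since PLEA replicate 1 exceeded saline replicate 2 for 34 members and saline replicate 3 for 27. PLEA replicate 3 exceeded saline replicate 2 for 18 members and lay below both saline replicates 2 and 3 for 17.

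The spread within groups was wider for these genes than for most. The median SD of log2 CPM was 1.07 in saline and 0.77 in PLEA over the members, and 0.24 and 0.19 over all tested genes. The highest library exceeded the lowest 2.00-fold for Mertk and 46.1-fold for Fcrls, with a median of 7.05-fold. Mean log2 CPM over the 35 members was 5.11, 3.21 and 3.58 in the saline libraries (3.97 ± 1.01, SD, n = 3) and 3.91, 2.32 and 3.22 in the PLEA libraries (3.15 ± 0.80, SD, n = 3). The gap between group means was smaller than the SD in saline and close to the SD in PLEA. In bulk tissue, fewer cells of a type and less RNA per cell cannot be told apart.

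**Figure D1:**
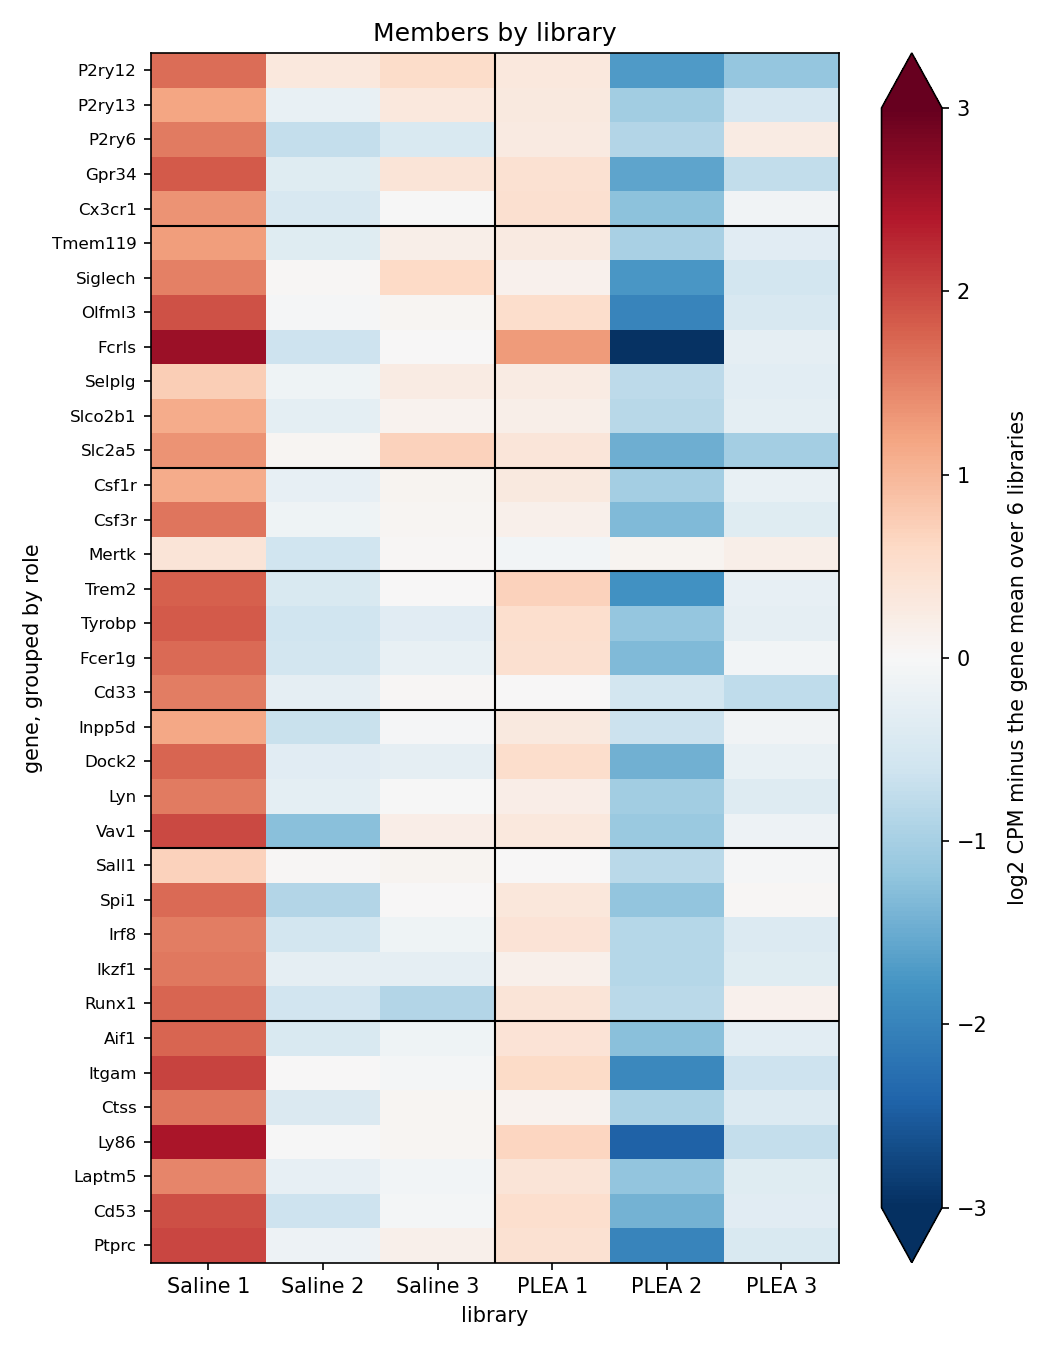
Each row is a member, grouped by role, and each column a library; colour is log2 CPM minus the gene's mean over the 6 libraries. Saline replicate 1 is the reddest column in all 35 rows and PLEA replicate 2 the bluest in 30, while the other 4 libraries interleave.

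Without saline replicate 1, the median over the members was -0.13, 20 of 35 members had negative values and 0 had an unadjusted p under 0.05. Without saline replicate 1 and PLEA replicate 2 together, the median was 0.13 and 9 members had negative values: P2ry12, P2ry13, Gpr34, Siglech, Selplg, Slc2a5, Csf3r, Cd33 and Sall1. In that reduced set P2ry6 and Runx1 had unadjusted p-values under 0.05 on the higher side, and no member was called in either direction. Leaving out saline replicate 2, the lowest saline library for 33 members, moved the median to -1.30 and put 20 members under an unadjusted p of 0.05. Leaving out PLEA replicate 1, the highest PLEA library for 34 members, moved it to -1.36 and gave 12. Without PLEA replicate 2 or without PLEA replicate 3, no member had an unadjusted p under 0.05. The share of all tested genes at that level is not given for these reduced sets, so nothing is read from the counts.

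The promoter sequences of 5 members are shown, chosen by the members' values or position. P2ry12 and Siglech had the smallest p-values, and P2ry13 is the neighbour of P2ry12 on chromosome 3. Fcrls varied most between libraries, and Mertk varied least. Each run is the 250 bases before the RefSeq start, 5′ to 3′ on the gene's strand (GRCm38.p6), with motif matches that lie wholly inside it in capitals. The windows are chr3:59262986-59263235 (minus strand) for P2ry12, chr3:59210883-59211132 (minus) for P2ry13, chr7:55767934-55768183 (plus) for Siglech, chr3:87263525-87263774 (minus) for Fcrls and chr2:128698665-128698914 (plus) for Mertk.
P2ry12: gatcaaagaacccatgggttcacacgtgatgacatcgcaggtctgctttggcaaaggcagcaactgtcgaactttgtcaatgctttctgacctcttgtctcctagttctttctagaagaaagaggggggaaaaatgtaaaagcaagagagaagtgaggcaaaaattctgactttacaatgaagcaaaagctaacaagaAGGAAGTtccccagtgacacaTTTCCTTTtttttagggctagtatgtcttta
P2ry13: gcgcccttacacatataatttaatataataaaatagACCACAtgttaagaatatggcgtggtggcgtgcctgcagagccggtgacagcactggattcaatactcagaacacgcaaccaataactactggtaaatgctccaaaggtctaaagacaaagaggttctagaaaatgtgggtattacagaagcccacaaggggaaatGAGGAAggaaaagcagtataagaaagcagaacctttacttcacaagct
Siglech: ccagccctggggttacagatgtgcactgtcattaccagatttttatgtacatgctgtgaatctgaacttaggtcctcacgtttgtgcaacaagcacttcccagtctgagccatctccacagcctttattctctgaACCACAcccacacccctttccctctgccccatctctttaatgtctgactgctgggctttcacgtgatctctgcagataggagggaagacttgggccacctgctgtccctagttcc
Fcrls: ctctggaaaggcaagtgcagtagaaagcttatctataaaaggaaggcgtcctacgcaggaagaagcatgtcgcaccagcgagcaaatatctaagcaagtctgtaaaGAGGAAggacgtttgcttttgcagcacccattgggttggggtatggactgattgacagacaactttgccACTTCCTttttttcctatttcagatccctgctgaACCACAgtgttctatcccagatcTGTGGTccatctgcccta
Mertk: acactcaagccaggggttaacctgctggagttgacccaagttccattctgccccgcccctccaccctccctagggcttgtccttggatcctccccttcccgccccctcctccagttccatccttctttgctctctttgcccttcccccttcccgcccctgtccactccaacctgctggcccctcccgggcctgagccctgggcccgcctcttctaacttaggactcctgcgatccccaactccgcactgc

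In P2ry12 the capitals mark AGGAAGT, an extended PU.1 motif, 52 to 46 bases before the start, and a reverse-strand match to the IRF motif AANNGAAA, 31 to 24 bases before it. In P2ry13 they mark the PU.1 core, GAGGAA, and a reverse-strand match to the RUNX motif, TGTGGT. The Fcrls run held the PU.1 core, the extended PU.1 motif on the reverse strand and the RUNX motif on both strands, while the Siglech run held a reverse-strand RUNX match. The Mertk run held none of these 4 motifs. Such a match is a run of letters, not a measured binding site.

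Promoter windows on chromosome 18, where Csf1r lies, were left out of the search. RefSeq windows outside it were found for 27 of 35 members, 35 windows of 300 bases in all, with several windows for some members. They were set beside all 32851 windows of the same length outside that chromosome, with both strands searched. GAGGAA was in 54.3% of the member windows (17 members) and in 28.3% of all windows. AGGAAGT, which overlaps it by letters, was in 31.4% of member windows (10 members) and in 9.35% of all. TGTGGT was in 28.6% (10 members) against 16.8%, and AANNGAAA in 20% (6 members) against 23.9%. These shares describe the promoters and use no expression value.

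Among the purinergic and chemokine sensors, which let microglia detect nucleotides and neuronal signals, 5 of 5 had negative values with a median log2 fold change of -0.85. P2ry12, an ADP receptor that steers microglial processes, was at 82.9, 32.3 and 38.3 CPM in the saline libraries and at 32.4, 7.99 and 11.6 CPM in the PLEA libraries. PLEA replicate 1 and saline replicate 2 met at the same level, and the other 2 PLEA libraries lay below every saline library. Its log2 fold change was -1.56 (SE 0.54, unadjusted p = 0.0189, adjusted p = 0.818), and it was -1.02 without saline replicate 1, -1.22 without PLEA replicate 2, -2.41 without PLEA replicate 1 and -0.69 without saline replicate 1 and PLEA replicate 2.

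P2ry13, a second ADP receptor beside P2ry12, was at 21.7, 8.15 and 11.9 CPM in saline and 11.8, 4.65 and 6.71 CPM in PLEA. The groups overlapped, and the log2 fold change was -0.85 (SE 0.43). Gpr34, a lysophosphatidylserine receptor on the X chromosome, was at 38.7, 8.44 and 14.3 CPM in saline and 15.0, 3.63 and 6.54 CPM in PLEA (log2 fold change -1.29, SE 0.63). Its PLEA replicate 1 stood above 2 of the 3 saline libraries. Cx3cr1, the receptor for neuronal fractalkine, was at 139, 38.9 and 54.1 CPM in saline and 75.9, 23.1 and 50.4 CPM in PLEA. Its log2 fold change of -0.63 (SE 0.52) became 0.11 without saline replicate 1. P2ry6, a UDP receptor tied to phagocytosis, was the lowest of these receptors at 9.56, 1.97 and 2.34 CPM in saline and 3.87, 1.76 and 3.80 CPM in PLEA, and its value of -0.56 became 0.56 without saline replicate 1.

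**Figure D2:**
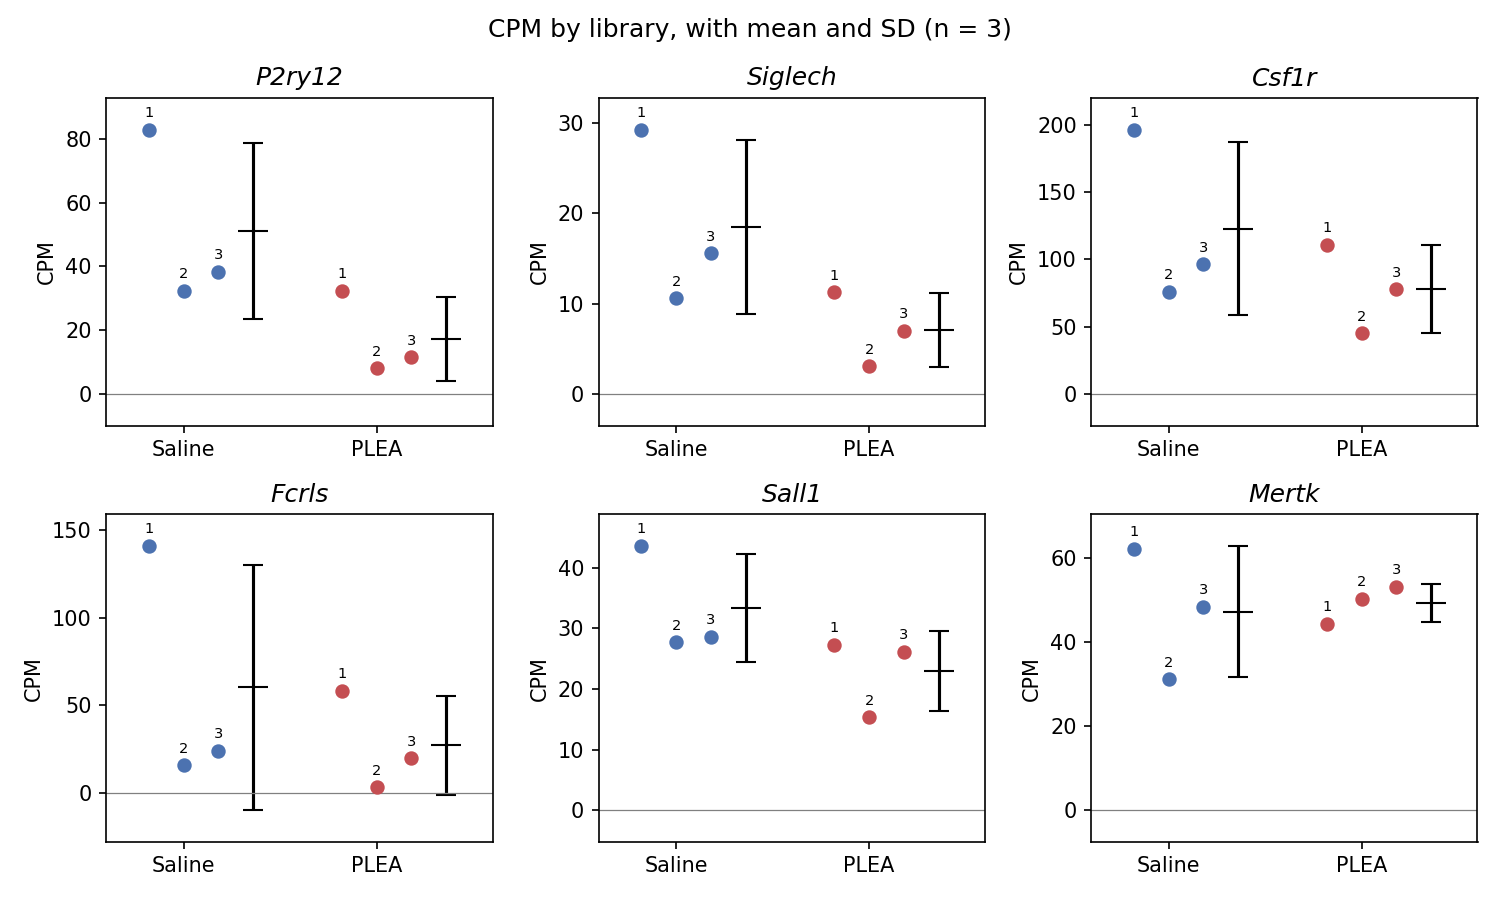
CPM of 6 members in each library (points, numbered by replicate), with group mean and SD (bars, n = 3). Saline replicate 1 is the highest point in every panel; only the Sall1 groups do not overlap, and the 3 PLEA libraries of Mertk lie between 44.4 and 53.2 CPM.

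The 7 surface and secreted identity genes all had negative values, with a median of -1.16. Siglech, a sialic acid-binding receptor used to mark microglia, was at 29.2, 10.6 and 15.6 CPM in saline and 11.3, 3.06 and 6.99 CPM in PLEA. Only PLEA replicate 1 reached into the saline range, and the log2 fold change was -1.38 (SE 0.49, unadjusted p = 0.0226, adjusted p = 0.818). Slc2a5, the fructose transporter GLUT5, was at 6.39, 2.60 and 4.06 CPM in saline and 3.24, 0.907 and 1.23 CPM in PLEA (log2 fold change -1.28, SE 0.52). Both kept the sign without saline replicate 1, at -0.87 for Siglech and -0.88 for Slc2a5.

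Tmem119, a membrane protein that separates microglia from other macrophages, was at 32.8, 10.6 and 15.4 CPM in saline and 16.6, 6.97 and 11.0 CPM in PLEA. That is a log2 fold change of -0.77 (SE 0.44), and PLEA replicates 1 and 3 lay inside the saline range. Fcrls, an Fc receptor-like gene of mouse microglia, was at 141, 15.5 and 23.9 CPM in saline and 58.3, 3.06 and 19.8 CPM in PLEA. Its value of -1.16 had an SE of 1.02, the widest among the members, and it became 0.47 without saline replicate 1. Olfml3, a secreted protein of the same signature, had -1.26 (SE 0.67), the organic anion transporter Slco2b1 -0.70 (SE 0.37) and the P-selectin ligand Selplg -0.55 (SE 0.30).

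Among receptors for growth factors and dying cells, Csf1r, on which microglial survival depends, was at 196, 75.8 and 96.3 CPM in saline and 111, 44.9 and 77.9 CPM in PLEA. PLEA replicate 1 exceeded 2 saline libraries, and the log2 fold change was -0.66 (SE 0.40, adjusted p = 0.832). Csf3r, the receptor for G-CSF, was at 22.3, 6.76 and 7.69 CPM in saline and 8.15, 2.95 and 5.76 CPM in PLEA (log2 fold change -1.12, SE 0.52). G-CSF receptor is also a neutrophil gene. The 9 neutrophil markers summed to at most 1.17 CPM in 5 libraries and to 19.4 CPM in saline replicate 3. The part of neutrophils in the Csf3r values was not tested.

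Mertk, a receptor for phosphatidylserine bridging proteins that astrocytes also express, was the member with a value above 0. It was at 62.3, 31.2 and 48.5 CPM in saline (47.3 ± 15.6, SD, n = 3) and 44.4, 50.4 and 53.2 CPM in PLEA (49.3 ± 4.45, SD, n = 3). PLEA replicate 2, the lowest library for most members, lay above 2 of the 3 saline libraries for Mertk. The log2 fold change was 0.06 (SE 0.23, adjusted p = 0.973), and it was -0.17 without saline replicate 2.

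The ITAM adaptors and their receptors had a median of -0.91, with 4 of 4 negative. Trem2, a lipid receptor of microglia, was at 35.4, 7.40 and 10.3 CPM in saline and 16.5, 2.89 and 8.61 CPM in PLEA, and its adaptor Tyrobp at 29.3, 5.43 and 6.46 CPM and at 11.6, 3.68 and 6.76 CPM. Both were highest in saline replicate 1 and lowest in PLEA replicate 2, with log2 fold changes of -0.92 (SE 0.70) and -0.91 (SE 0.67). The Fc receptor gamma chain Fcer1g had -0.80 (SE 0.63). Without saline replicate 1 the values were 0.09 for Trem2, 0.31 for Tyrobp and 0.26 for Fcer1g. Cd33, a sialic acid-binding receptor, was at 44.0, 12.6 and 15.5 CPM in saline and 15.2, 10.4 and 8.94 CPM in PLEA. Its log2 fold change was -1.06 (SE 0.46, unadjusted p = 0.0467, adjusted p = 0.818) and -0.28 without saline replicate 1.

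The 4 signalling enzymes and exchange factors had a median of -0.94, and their values became positive without saline replicate 1 for all but Lyn. Lyn, a Src-family kinase, was at 28.3, 7.80 and 9.60 CPM in saline and 11.1, 4.65 and 7.32 CPM in PLEA (log2 fold change -0.99, SE 0.51). Inpp5d, which encodes the lipid phosphatase SHIP1, was at 43.5, 12.4 and 19.1 CPM in saline and 24.2, 12.6 and 18.3 CPM in PLEA. Its value of -0.45 (SE 0.43) was the negative value nearest to 0 among the members. The Rac exchange factors Dock2 and Vav1 had -0.89 (SE 0.65) and -1.09 (SE 0.72), and Vav1 was lowest in saline replicate 2 at 1.97 CPM rather than in PLEA replicate 2.

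Transcription factors had a median of -0.77, with 5 of 5 negative. Sall1, a zinc-finger factor of microglial identity, was at 43.6, 27.7 and 28.6 CPM in saline and 27.3, 15.4 and 26.2 CPM in PLEA. The groups did not overlap, by a margin of less than 1 CPM between saline replicate 2 and PLEA replicate 1, and the log2 fold change was -0.54 (SE 0.26, adjusted p = 0.818). Spi1 was at 12.4, 2.08 and 3.88 CPM in saline and 4.85, 1.70 and 3.97 CPM in PLEA, and its log2 fold change was -0.81 (SE 0.64). Irf8, Ikzf1 (the lymphoid and myeloid factor Ikaros) and Runx1 had -0.77, -0.93 and -0.62. Without saline replicate 1 the values were 0.25 for Spi1, 0.15 for Irf8, 0.71 for Runx1, -0.02 for Ikzf1 and -0.29 for Sall1.

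The general myeloid and leukocyte genes had a median of -1.07, with 7 of 7 negative and none at an unadjusted p under 0.05. Ly86, the partner of the toll-like receptor relative RP105, had the lowest fold change of the members, at 45.0, 8.09 and 8.49 CPM in saline and 12.8, 1.53 and 4.98 CPM in PLEA, or -1.68 on the log2 scale (SE 0.84, adjusted p = 0.818). Ctss, the lysosomal protease cathepsin S, was at 168, 40.8 and 56.7 CPM in saline and 59.5, 28.5 and 41.6 CPM in PLEA (-1.04, SE 0.50). In both, PLEA replicate 1 exceeded saline replicates 2 and 3. Itgam (CD11b) had -1.32 and the leukocyte phosphatase Ptprc (CD45) -1.36. The tetraspanin Cd53 had -1.07, the calcium-binding protein Aif1 (IBA1) -0.97 and the lysosomal protein Laptm5 -0.85.

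**Figure D3:**
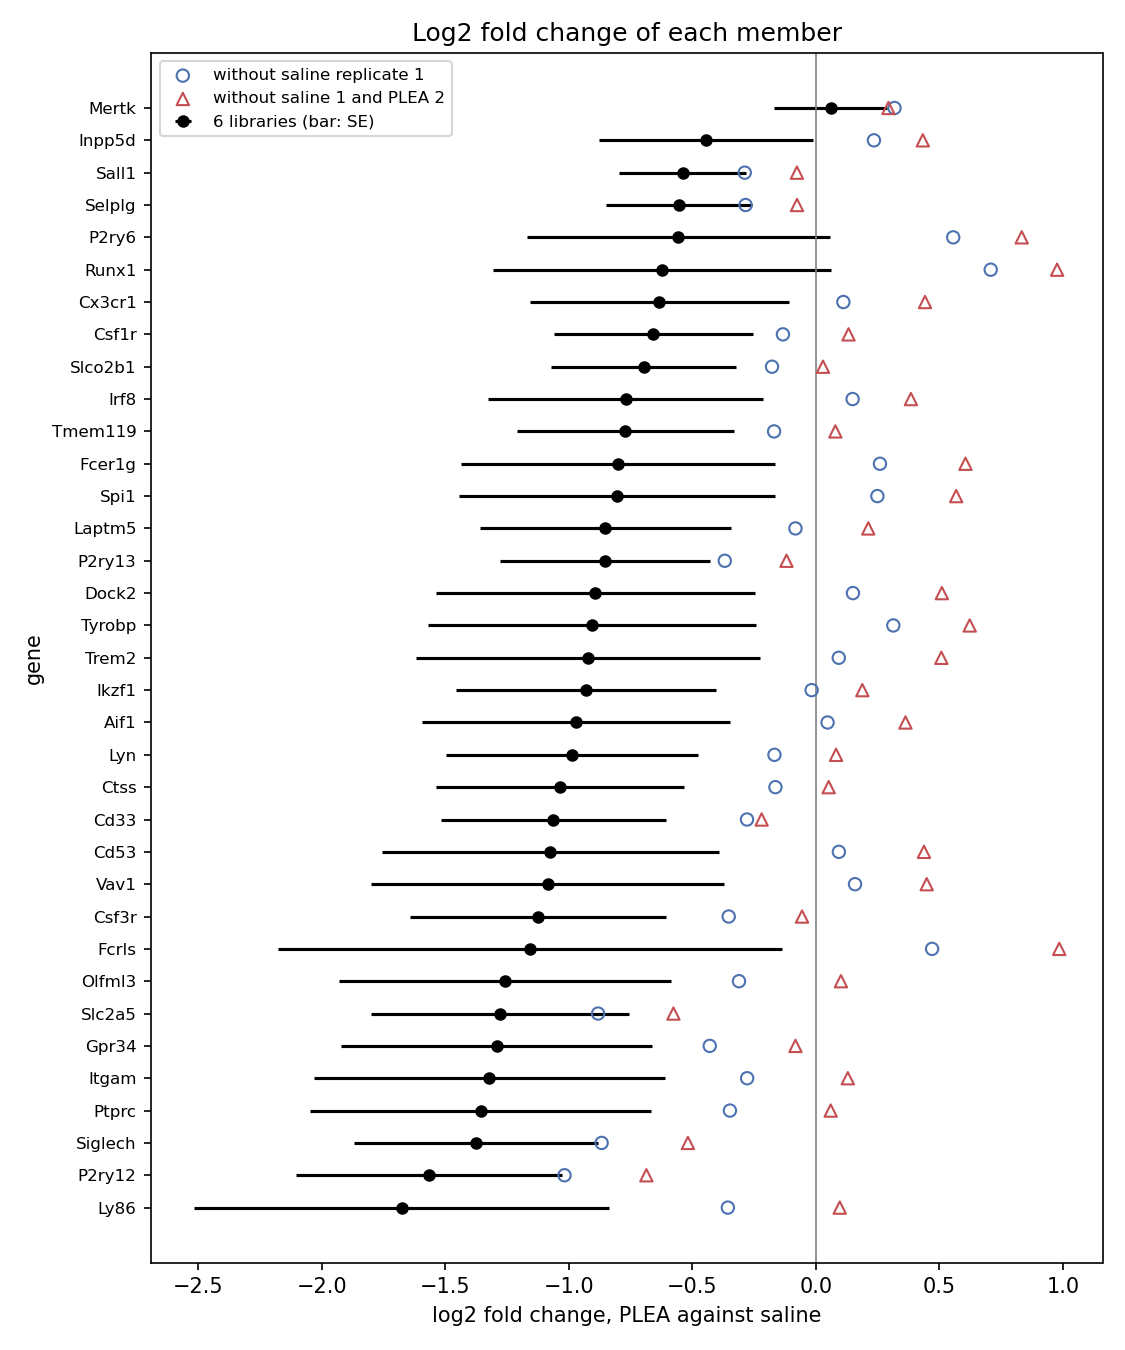
Log2 fold change of PLEA against saline for each member over 6 libraries (black, bar is SE), without saline replicate 1 (circles) and without saline replicate 1 and PLEA replicate 2 (triangles). With 6 libraries 34 of 35 points lie below 0, and in the smallest set only 9 do, led by P2ry12, Slc2a5 and Siglech.

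Per length, the saline means were highest for Ctss (65.2 ± 51.1 CPM per kb, SD, n = 3), Fcrls (25.8 ± 30.1), Csf1r (21.3 ± 11.2), Tyrobp (20.6 ± 20.3), P2ry12 (20.1 ± 10.9) and Cx3cr1 (17.2 ± 12.0). Neighbours in that order differed by less than the larger of their SDs. Runx1 was the lowest at 0.30 ± 0.32 CPM per kb and Ptprc next at 0.71 ± 0.61. In PLEA the P2ry12 mean was 6.80 ± 5.17 CPM per kb, below Csf1r at 13.5 ± 5.69 and Cx3cr1 at 11.1 ± 5.86, whereas the 3 stood close together in saline.

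That shift was examined within each library as log2 of a member's CPM over that of Csf1r, a measure chosen after the values had been seen, so it is a description. P2ry12 stood at -1.24, -1.23 and -1.33 relative to Csf1r in saline and at -1.77, -2.47 and -2.74 in PLEA, a difference of -1.06. Siglech stood at -2.74, -2.83 and -2.62 in saline and at -3.28, -3.83 and -3.46 in PLEA, a difference of -0.79. With Csf1r as the denominator, the saline libraries agreed closely on both ratios (SD 0.05 for P2ry12 and 0.11 for Siglech) despite their unequal totals of myeloid RNA. Every PLEA library lay below them. Slc2a5 (-0.71), Csf3r (-0.38) and P2ry13 (-0.20) also had PLEA values wholly below saline. That is 5 of 34 members, and none had them wholly above. Over all tested genes the shares were 0.262% wholly below and 4.05% wholly above, but a gene that does not vary with Csf1r carries the swing of Csf1r itself in this ratio, so nothing is read from these shares. An exact two-sided permutation test gives p = 0.1, the smallest that 3 against 3 libraries allow, whenever the groups do not overlap. The 5 genes were picked by that lack of overlap, so this p adds nothing to it.

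The other sensors and identity genes varied in this ratio. Fcrls had a difference of -0.65, Olfml3 -0.65 and Gpr34 -0.60, each with overlap between the groups. The difference was -0.06 for Tmem119, 0.00 for Slco2b1, 0.05 for Cx3cr1, 0.06 for Selplg and 0.08 for Sall1, and 16 of 34 members lay within 0.2 of 0. Ly86 had -1.0 and Mertk 0.74, both with overlap. Leaving out each library in turn, the difference relative to Csf1r ran from -1.34 to -0.86 for P2ry12 and from -0.91 to -0.64 for Siglech. Against the mean of the other members in place of Csf1r, P2ry12 had -0.90, Siglech -0.62 and Csf3r -0.19, all without overlap. The saline libraries agreed less closely by that measure. They stood at 1.30, 1.86 and 1.73 for P2ry12 (SD 0.29) and at -0.24, 0.22 and 0.40 for Siglech (SD 0.33). Slc2a5 had -0.53 and P2ry13 -0.01 by that measure, with overlap, while Ptprc lay wholly below and Cx3cr1 and Inpp5d wholly above. In all, 4 of 35 members lay wholly below and 2 wholly above. The share of all tested genes is not given for this measure, so nothing is read from these counts.

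**Figure D4:**
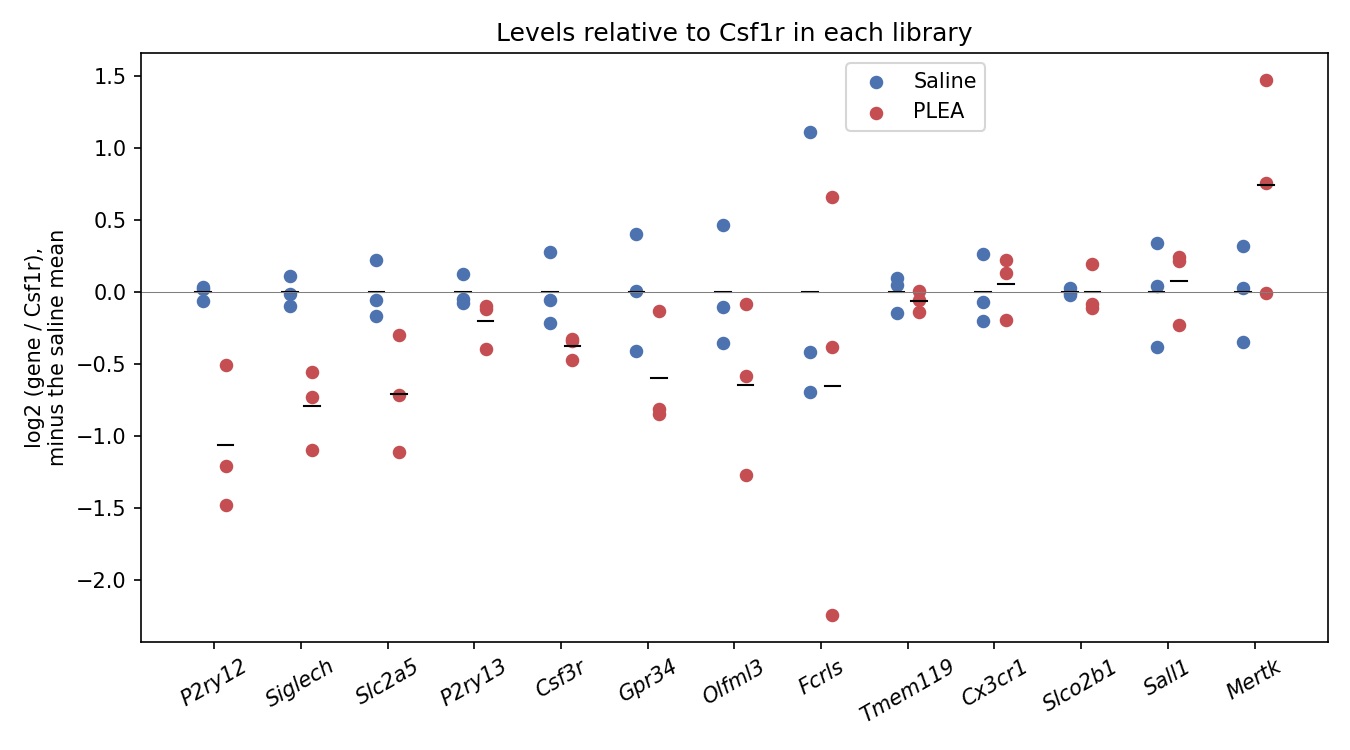
Log2 of each gene's CPM over that of Csf1r in the same library, minus the saline mean of that ratio; points are libraries and bars group means. P2ry12 and Siglech have all 3 PLEA libraries below the saline libraries, while those of Gpr34, Olfml3 and Fcrls reach into the saline range and those of Tmem119, Cx3cr1, Slco2b1 and Sall1 overlap near 0.

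For a comparison within each library, 9 identity genes were P2ry12, P2ry13, Tmem119, Cx3cr1, Sall1, Siglech, Gpr34, Fcrls and Olfml3. The 9 general myeloid genes were Aif1, Itgam, Ctss, Ly86, Laptm5, Cd53, Ptprc, Tyrobp and Fcer1g. Both sets differ from the role lists above. The mean log2 CPM of the identity set minus that of the general set was 0.48, 0.92 and 1.09 in saline (0.83 ± 0.32, SD, n = 3) and 0.76, 0.71 and 0.71 in PLEA (0.72 ± 0.03, SD, n = 3). The groups overlapped, and the library with the most myeloid RNA, saline replicate 1, had the smallest difference.

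Other genes of the pathways were read from lists chosen in the same way, and none was called. Of the ligands and maintenance factors, 6 of 8 were tested with a median of -0.20, 0 at an unadjusted p under 0.05, and 4 negative. The CSF1R ligands Csf1 and Il34 had -0.19 and 0.01, fractalkine Cx3cl1 0.20, the MERTK ligands Gas6 and Pros1 -0.20 and -0.50, and Tgfb1 -0.70. Csf2 had 0 counts in every library. Saline replicate 1 was the highest library for 3 of the 6, Csf1, Pros1 and Tgfb1, with Pros1 at 49.4 CPM there and 18.2 CPM in saline replicate 2 and Tgfb1 at 20.3 and 6.59 CPM. Cx3cl1 was at 479 and 515 CPM in these libraries.

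Of 16 other microglial genes 15 were tested, and 15 had negative values (median -0.70). The matrix protein Sparc (-0.67) and the leukotriene synthase Ltc4s (-1.22) had an unadjusted p under 0.05. That is 2 of 15, against 3.58% of all tested genes on the lower side. Unlike the members, Sparc was highest in saline replicate 2 (534 CPM) and lowest in PLEA replicate 1 (173 CPM). Of 18 other ITAM and Src-family signalling genes 17 were tested, with a median of -0.54, 16 negative and 0 at an unadjusted p under 0.05. The lowest 2 p-values there were those of the GTPase Rac2 (-1.50) and the phospholipase Plcg2 (-0.91). Saline replicate 1 was the highest library for 17 of these 17, and without it their median was 0.26.

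The 14 other myeloid transcription factors had a median of -0.35. On the lower side 4 of them (Tal1, Elf1, Maf and Fli1) had an unadjusted p under 0.05, against 3.58% of all tested genes. Tal1 reached 16.1 CPM in saline replicate 2 and at most 3.81 CPM elsewhere, and its log2 fold change was -2.08. Of 4 other integrin genes, 3 were tested (median -0.73), with Itgb2, the beta chain that pairs with CD11b, at -0.73. Phagocyte activation genes were tested for 9 of 10 with a median of -0.39, which became 0.81 without saline replicate 1. Spp1, the osteopontin gene, was at 477, 31.8 and 19.1 CPM in saline and 84.7, 8.61 and 39.5 CPM in PLEA, or -1.99 on the log2 scale (adjusted p = 0.827).

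Markers of other blood and border cells did not share 1 library pattern. Border macrophage markers had a median of -1.06 over 7 of 8 tested. Of these, 4 (Cbr2, Mrc1, F13a1 and Siglec1) were lower at an unadjusted p under 0.05, against 3.58% of all tested genes. The summed level of the border macrophage markers was 20.5 to 50.0 CPM in saline and 15.6 to 22.5 CPM in PLEA. Of 8 blood monocyte markers only Fn1 was tested (-0.97). It held 245.1 of the list's 255.4 CPM in saline replicate 1 and 101.9 of 102.6 CPM in saline replicate 2. Which cells express Fn1 here was not tested, so its value is not read as that of monocytes. Ccr2, which defines inflammatory monocytes, reached 6.22 CPM in saline replicate 1 and at most 0.92 CPM elsewhere. Neutrophil markers had 0 of 9 tested and were highest in saline replicate 3. For T cells 2 of 8 were tested, Cd4 (log2 fold change 0.70) and Lck (-0.05). The summed level was 2.25 to 19.1 CPM in saline and 8.38 to 22.2 CPM in PLEA, highest in PLEA replicate 2. Cd4 held 19.5 of the 22.2 CPM there and 17.2 of 19.1 CPM in saline replicate 3, but 0.867 of 2.25 CPM in saline replicate 2. Which cells express Cd4 here was not tested, so the sum is not read as the level of T cells. For B cells 1 of 6 was tested, with Ms4a1 at 0 counts throughout.

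Tissue markers differed in their pattern. Astrocyte markers had a median of -0.42, 3 of 8 at an unadjusted p under 0.05, and saline replicate 1 highest for 8 of 8. Meningeal fibroblast markers had a median of -1.46, with 7 of 8 at an unadjusted p under 0.05, and -1.10 without saline replicate 1 and PLEA replicate 2. Striatal neuron markers summed to 968, 240 and 2283 CPM in saline and 1046, 2248 and 1946 CPM in PLEA (median 0.51), in tissue labelled as cortex, while cortical neuron markers had a median of 0.04. Oligodendrocyte lineage, endothelial and mural cell markers had medians of -0.24, -0.23 and -0.37. In that order, 0 of 8, 3 of 7 and 2 of 7 were lower at an unadjusted p under 0.05, against 3.58% of all tested genes. The part of these cells and of tissue composition in the members' values was not tested.

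**Figure D5:**
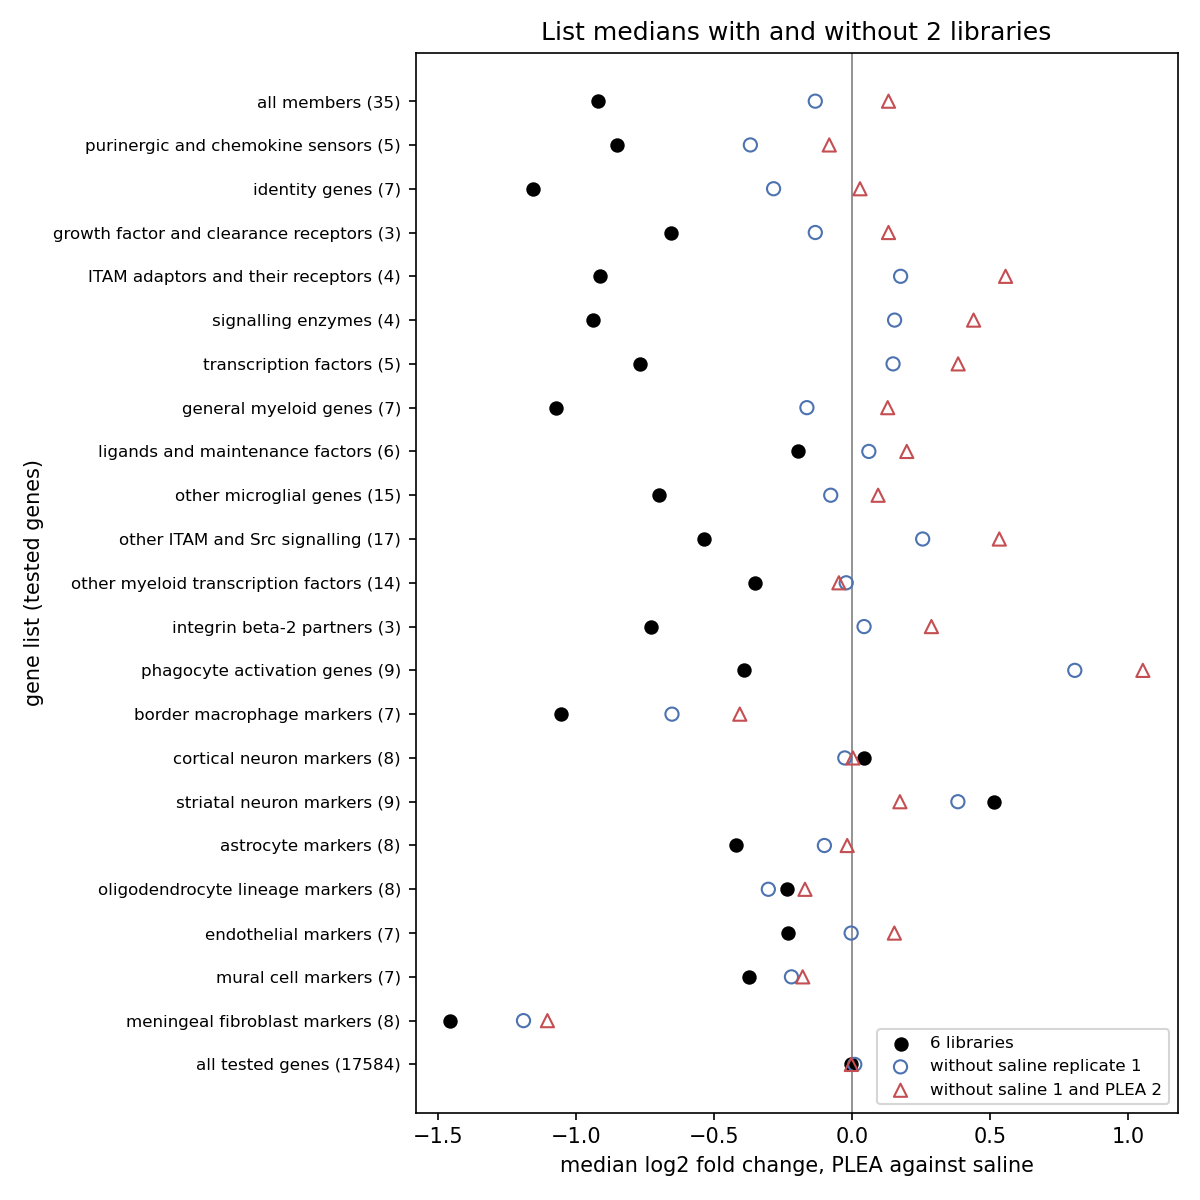
Median log2 fold change of each list (tested genes in brackets) over 6 libraries (black), without saline replicate 1 (circles) and without saline replicate 1 and PLEA replicate 2 (triangles). The members' median goes from -0.92 to -0.13 and 0.13, while that of the meningeal fibroblast markers goes from -1.46 to -1.19 and -1.10.

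Library totals were 16810448 to 17516434 counts, and the members had 16 to 3346 counts in a library, the lowest being Slc2a5 in PLEA replicate 2, where counting error weighs most. The strand setting is not given in the sources used here, and some members share exon bases with another gene. Csf1r, at position 61233670 to 61265221 of chromosome 18 in the deposited table, overlaps the opposite-strand gene Hmgxb3 over 873 of its 5774 exon bases, and Hmgxb3 had a log2 fold change of 0.24. P2ry12, at 59123693 to 59170292 of chromosome 3, shares 9 of 2546 exon bases with the opposite-strand gene Med12l (-0.09). Itgam shares 3450 of 5024 exon bases with the same-strand, near-identical model Gm49368, which had 2 counts in all, so Itgam's value is uncertain. Lyn, Slco2b1, Dock2, Runx1 and Cx3cr1 overlap non-coding genes by 78 to 471 bases.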

How the data were processed

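Per the labels' protocols, libraries were made with a SMARTer mRNA kit from 1.3 µg of RNA purified on RNeasy columns. The authors deposited raw read counts per gene and a gene length in bases. No aligner, counter or strand setting was given in the sources used here. As builds, GRCm38 and mm10 appear in the submitters' processing notes, but 1 of 35 members had the coordinates of GENCODE M21 (34 had its exon length), so deposited coordinates carry no build. Groups follow the sample titles.

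Counts were fitted in R 4.3.3 by edgeR 4.0.16 (TMM, filterByExpr, quasi-likelihood F test, group only), with Benjamini-Hochberg adjustment over 17584 genes and a threshold of 0.05. SEs are log2 fold changes over the root of F. The fit was tested on simulated data. Log2 CPM means used a prior count of 2. In the smallest library 10 CPM is about 168 counts. No 2 libraries agreed within sampling noise (chi-square per degree of freedom 14.3 to 54.0 within groups). Alternatives were DESeq2 1.42.0, limma 3.58.1 (voom), RLE and upper-quartile factors, no filter, a minimum CPM of 1 in 3 libraries, a replicate block, and leaving out libraries. Exon overlaps and copies were read from GENCODE M21 (BLASTN 2.17.0, identity of at least 99%). Promoters came from RefSeq. Members and lists were chosen with earlier results of these data known. All members are named. From each other list up to 4 tested genes with the smallest p and a mean CPM of at least 1 could be named; Csf1, Il34, Csf2, Ccr2, Ms4a1 and the genes overlapping members fall outside that rule and were named after their values were seen.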

Additional observations from a re-analysis of the deposited data

How the results depend on the processing

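No member was called under any of the 14 alternatives. The members' median log2 fold change was -0.93 with DESeq2, -0.77 with voom and -0.77 with the replicate block, ran from -1.36 to -0.13 when each library was left out in turn, and was 0.13 without saline replicate 1 and PLEA replicate 2. Members lower at an unadjusted p under 0.05 numbered 4, against 10 with DESeq2 and 26 without the filter. They numbered 0 to 20 leaving out each library and 0 without both libraries, where 2 were higher. The share of all tested genes at that level was 3.58% in the main edgeR fit. It is not given for the alternatives, so nothing is read from their counts. Over all genes, calls higher and lower were 2 and 37 with DESeq2, 7 and 31 without the filter, 0 and 0 to 1 leaving out each library, and 0 and 1 without both libraries.

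The labels state no pairing of the replicate numbers. Deviations of same-numbered libraries correlated at 0.37, 0.17 and -0.02, and those of differently numbered libraries at -0.36 to 0.23. With so few libraries these values cannot decide whether the numbers pair the samples. With the number as a block, 27 members were lower at an unadjusted p under 0.05, and no gene was called. The share of all tested genes at that level is not given for this fit, so nothing is read from the count.

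Leaving out 1 library reversed the sign for 15 members, 14 of them without saline replicate 1 and Mertk without saline replicate 2. Their log2 fold changes then ran from -0.93 to 0.56 for P2ry6, -1.09 to 0.11 for Cx3cr1, -2.42 to 0.47 for Fcrls, -1.64 to 0.0926 for Trem2, -1.42 to 0.31 for Tyrobp, -1.26 to 0.26 for Fcer1g, -0.78 to 0.23 for Inpp5d, -1.46 to 0.15 for Dock2, -1.57 to 0.16 for Vav1, -1.23 to 0.25 for Spi1, -1.23 to 0.15 for Irf8, -1.04 to 0.71 for Runx1, -1.46 to 0.0473 for Aif1, -1.66 to 0.0930 for Cd53 and -0.17 to 0.32 for Mertk.

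Without saline replicate 1 and PLEA replicate 2, 25 members reversed. The log2 fold changes were 0.83 for P2ry6, 0.44 for Cx3cr1, 0.0787 for Tmem119, 0.10 for Olfml3, 0.98 for Fcrls, 0.0287 for Slco2b1, 0.13 for Csf1r, 0.51 for Trem2, 0.62 for Tyrobp, 0.61 for Fcer1g, 0.43 for Inpp5d, 0.51 for Dock2, 0.0816 for Lyn, 0.45 for Vav1, 0.57 for Spi1, 0.38 for Irf8, 0.19 for Ikzf1, 0.98 for Runx1, 0.36 for Aif1, 0.13 for Itgam, 0.0518 for Ctss, 0.10 for Ly86, 0.21 for Laptm5, 0.44 for Cd53 and 0.0599 for Ptprc. The cause was not tested. The search for ITAM motifs in proteins was not run.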
